A study of Mus musculus with 2 samples.

Results

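The genes followed here are 10 genes of primary microcephaly and of the centrosome, Aspm, Cdk5rap2, Cenpj, Mcph1, Wdr62, Stil, Cep135, Cep152, Nde1 and Pafah1b1. They were chosen by symbol, and all 10 were found among the 21896 gene symbols of the study. The 2 RNA-seq libraries were made from the germinal layers of the mouse cortex at E13.5, that is the ventricular and the subventricular zone (VZ–SVZ) cut from cortical slices, on the C57/BL6 strain. The control library carried the floxed Rcor2 allele on both chromosomes (Rcor2fl/fl), and the other, called the mutant, came from Rcor2cko embryos, in which Cre recombinase under the Nestin promoter, active in the neural lineage, removes floxed exons of the co-repressor gene Rcor2. The parents of the embryos both carried Rcor2fl/+ and NesCre, embryos with both floxed alleles and Cre being the Rcor2cko embryos by the definition of the study, so that the control has no Cre. The number of embryos in a library is not given in the sources used here. Each genotype had 1 library (n = 1), so that no difference has a replicate check, and every comparison is between these 2 libraries rather than between the genotypes.

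In primary microcephaly the brain is small from birth while its architecture is largely kept, and most of the genes known to cause it encode proteins of the centrosome, the centriole or the mitotic spindle poles. The cortex is thought to be sensitive to them because radial glial cells divide at the ventricular surface, where the centrosome anchors both the primary cilium and the spindle, and where the orientation and length of mitosis bear on whether a daughter cell stays a progenitor. Nde1 and Pafah1b1 (Lis1) act with cytoplasmic dynein, the motor that also moves the nucleus of the radial glial cell between divisions, and mutation of either disturbs neuronal migration as well as growth. The question put to these data was whether the RNA of the 10 genes differed between the control and the Rcor2cko VZ–SVZ.

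The targeted gene was examined first. Rcor2 read 90.6 FPKM in the control and 55.7 FPKM in the mutant, which is -0.70 on the log2 scale over the whole gene, exons outside the floxed part included. FPKM is the number of fragments per kilobase of transcript, scaled to the size of the library, so that levels can be set side by side between genes. Xist, transcribed from the inactive X chromosome, had 177 and 0.109 FPKM, while the Y-linked Eif2s3y was listed at 0 in the control and had 19.8 FPKM in the mutant, so that the sex of the embryos cannot be told apart from the genotype. Read counts are not part of the files, but whole fragments could be obtained from the steps between low FPKM values, with scaling totals of 18841656 fragments in the control and 25479848 in the mutant. For a transcript of 5000 nt, 3 fragments correspond to 0.0331 and 0.0245 FPKM, far below the level of any of the 10 genes.

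None of the 10 genes differed by 1.5-fold between the libraries. The changes, as log2 of the ratio of (FPKM + 0.1), Rcor2cko over Rcor2fl/fl, ran from -0.23 for Wdr62 to 0.081 for Cep135, with a median of -0.037. The pseudocount of 0.1 slightly understates changes of low values. Without the pseudocount, the largest difference, that of Wdr62, was a change in FPKM of -15.4%. The largest in the other direction, that of Cep135, was 5.94%.

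To set these values against the rest of the transcriptome, the same ratio was taken for the 11777 genes that reached 1 FPKM in either library. Their median was -0.033, a value close to that of the 10 genes. More than 1.5-fold higher in the mutant were 3.79% of all genes and 0 of the 10, and more than 1.5-fold lower were 1.76% of all genes and 0 of the 10. With such small background shares, a count of 0 among 10 genes is close to the background. The central 90% of all genes lay between -0.38 and 0.47, and all 10 genes fell inside this range. Of the 10 genes 8 were below 0, as were 57.6% of all genes, and 5 were below the median of all genes.

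**Figure D1:**
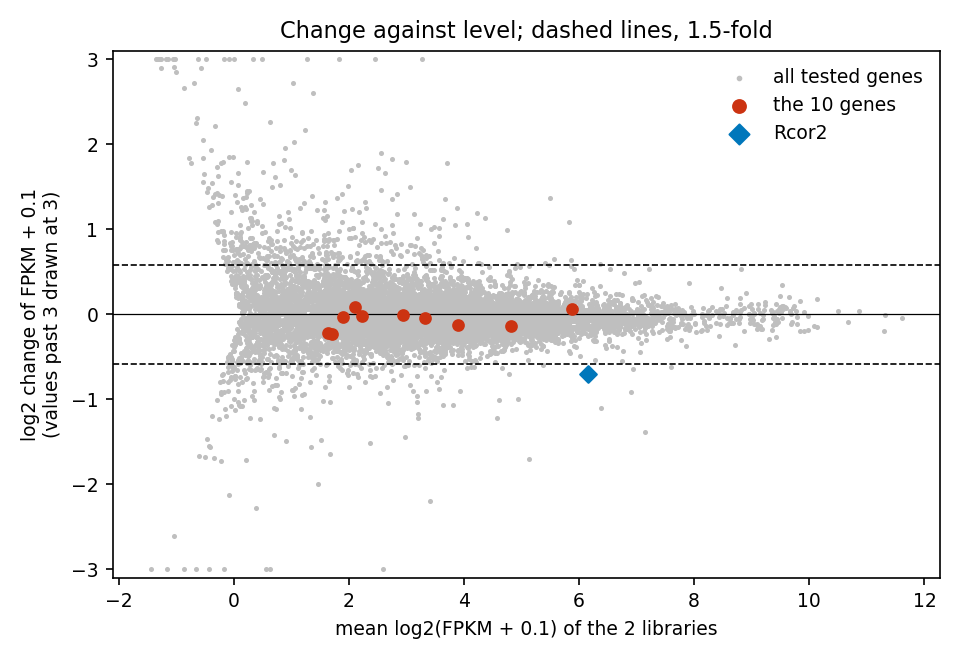
The log2 change of FPKM + 0.1 (vertical axis) is plotted against the mean log2 level of the 2 libraries (horizontal axis) for all 11777 tested genes in grey, the 10 genes in red and Rcor2 as a blue diamond. The 10 genes lie between -0.23 and 0.081, inside the dashed 1.5-fold lines, whereas Rcor2 lies below them at -0.70.

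The levels of the 10 genes spanned more than an order of magnitude, and their rank order was identical in the 2 libraries. Pafah1b1 was highest in both and Mcph1 lowest in both, with ratios of 17.6 between them in the control and 21.5 in the mutant. Among the tested genes the control levels ranged from the 18.7th percentile for Mcph1 to the 92.5th for Pafah1b1. Going down the order from Pafah1b1 through Nde1 and Cdk5rap2 to Aspm, the 95% FPKM intervals of neighbours did not overlap in either library. Those of Aspm and Cenpj overlapped, those of Cenpj and Stil did not, and from Stil through Cep135, Cep152 and Wdr62 to Mcph1 each interval overlapped the next. Neighbours among these last 5 genes are therefore not resolved, although in the mutant the interval of Stil (3.71 to 5.42) lay above those of Wdr62 (2.24 to 3.60) and Mcph1 (2.12 to 3.46), and that of Cep135 (3.53 to 5.19) above that of Mcph1.

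**Figure D2:**
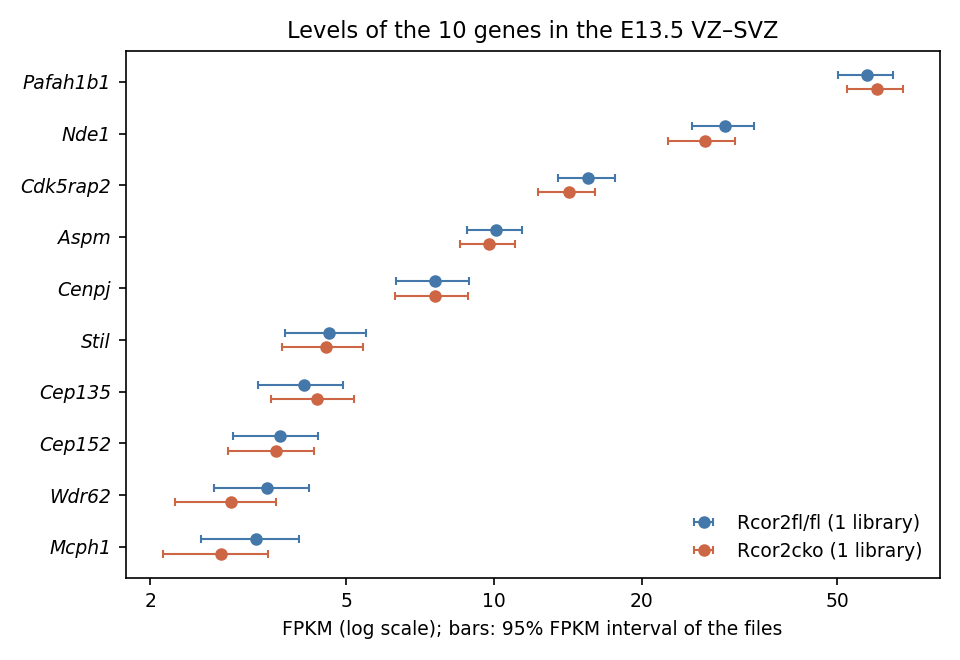
FPKM (horizontal axis, log scale) of the 10 genes in the control (blue) and the mutant (orange), 1 library each. The bars are 95% FPKM intervals from the files, with those of the transcripts of Nde1 and of Pafah1b1 combined in the control, and the intervals of the 2 libraries overlap for all 10 genes.

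The promoters of the 10 genes were read to see what they share besides function. RefSeq windows from 250 bases before to 50 bases after the start site were at hand for 9 of the 10 genes, Mcph1 being the exception, and all 10 windows (Wdr62 has 2) matched mm9 exactly. For 6 of the 9 genes the start site was that of the files, whereas that of Cep135 lay 3015 bases upstream of it. Many genes of G2 and mitosis carry a CCAAT box, bound by NF-Y, and a cell cycle gene homology region (CHR), and genes of G1/S carry E2F sites. Searched on both strands were CCAAT, the CHR letters TTTGAA or TTCGAA, and the E2F letters TTTGGCGC or TTTCCCGC or TTTCGCGC or TTTGCCGC. The promoters of Aspm, Stil and Wdr62 are shown since each has 3 CCAAT boxes, and that of Cep152, which also has 3, is not shown. The promoter of Cenpj is shown since, like that of Pafah1b1, it has none of the motifs. The 120 bases before the start site are written 5′ to 3′ on the strand of the gene, from the RefSeq windows with mm9 positions. Capitals mark the CCAAT box, which reads ATTGG where it lies on the reverse strand, and the first box of Stil, 241 bases before the start, lies outside the printed part.
Aspm, plus strand, chr1:141351230-141351349: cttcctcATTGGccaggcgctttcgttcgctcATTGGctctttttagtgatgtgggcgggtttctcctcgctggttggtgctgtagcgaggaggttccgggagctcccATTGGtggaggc
Stil, plus strand, chr4:114672603-114672722: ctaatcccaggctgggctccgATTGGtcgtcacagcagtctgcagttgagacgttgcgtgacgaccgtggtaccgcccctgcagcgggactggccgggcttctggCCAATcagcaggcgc
Wdr62, minus strand, chr7:31065441-31065560: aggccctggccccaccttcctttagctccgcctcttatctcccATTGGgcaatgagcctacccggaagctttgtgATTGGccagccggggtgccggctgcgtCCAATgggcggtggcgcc
Cenpj, minus strand, chr14:57190684-57190803: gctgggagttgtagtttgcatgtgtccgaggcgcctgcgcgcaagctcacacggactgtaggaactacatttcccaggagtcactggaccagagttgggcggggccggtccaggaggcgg

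A CCAAT box was found in 6 of the 9 genes (Aspm, Cep152, Stil, Cep135, Wdr62 and Nde1) and in 37.4% of all 32851 promoter windows (38.2% of the 10839 windows of tested genes). At least 3 boxes were found in Aspm, Cep152, Stil and Wdr62, against 3.37% of all windows and 5.08% of those of tested genes. The cutoff of 3 was not planned and is the highest count found in these genes, so this contrast is a description only. A CHR was found in Aspm, Cep152 and Cdk5rap2 and in 19.2% of all windows (13.1% for tested genes), and both motifs together in Aspm and Cep152 and in 7.52% of all windows (5.46% for tested genes). The E2F letters were found in Wdr62 alone and in 2.26% of all windows (4.0% for tested genes). Of 29 genes of the mitotic spindle and G2/M with a window, 20 held both a CCAAT box and a CHR. No 2 matches overlapped in the 9 genes with a window. The matches describe letters and not bound sites. The log2 changes of the genes with a CCAAT box were -0.046 (Aspm), -0.027 (Cep152), -0.018 (Stil), 0.081 (Cep135), -0.23 (Wdr62) and -0.14 (Nde1). Those of the genes without a box were -0.13 (Cdk5rap2), 0.063 (Pafah1b1) and -0.0035 (Cenpj). Both sets held values on both sides of 0, and a relation of motif and change was not tested.

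Aspm and Wdr62 encode proteins of the spindle pole. Aspm, which spans 141351350 to 141390667 of chromosome 1 in mm9 on the plus strand, gives the large protein that gathers microtubule minus ends there and is the gene most often mutated in primary microcephaly. In the control 1841 fragments gave it 10.1 FPKM, and in the mutant 2409 fragments gave it 9.78 FPKM. The libraries differed by -0.046 on the log2 scale (95% exact interval -0.13 to 0.042). This was the narrowest of the 8 exact intervals, and Aspm also had the longest transcript (9866 nt, with 28 exons and 3122 codons). Wdr62, on chromosome 7 from 31025157 to 31065438 on the minus strand, gives a WD-repeat protein that works with Aspm. The control held 296 fragments of it (3.45 FPKM) and the mutant 338 (2.92 FPKM), which put Wdr62 at -0.23, with an exact interval of -0.47 to -0.012. Wdr62 was thus the lower of the pair in both libraries, and the ratio of Aspm to Wdr62, which does not depend on the scaling of a library, was 2.93 in the control and 3.35 in the mutant.

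None of the 4 genes of centriole duplication differed beyond counting error. Centrioles are duplicated once per cell cycle, when Cep152 recruits the kinase Plk4 to the mother centriole and Stil helps to build the cartwheel of the new one, which Cep135 joins to the microtubule wall and Cenpj (CPAP) elongates. Cenpj, on chromosome 14 from 57145598 to 57190683, had 7.60 FPKM in the control (597 fragments) against 7.58 FPKM in the mutant (804 fragments). The difference was -0.0035 on the log2 scale, and its exact interval ran from -0.16 to 0.15. Stil, on chromosome 4 from 114672723 to 114715801, had 4.62 FPKM against 4.56 FPKM, based on 447 and 596 fragments, or -0.018 (-0.20 to 0.16). The proportion of the 2 genes was nearly equal in both libraries, with Stil at 0.608 times the level of Cenpj in the control and 0.602 times in the mutant.

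Cep152, on chromosome 2 from 125388824 to 125450849, had 3.67 FPKM against 3.60 FPKM, based on 385 and 510 fragments, or -0.027 (-0.22 to 0.17). Cep135, on chromosome 5 from 77017723 to 77075491, was the only gene of this group with the higher value in the mutant, 4.36 FPKM (568 fragments) against 4.12 FPKM (397 fragments). It differed by 0.081 (-0.10 to 0.27). All 4 intervals included 0, and none reached a 1.5-fold change, which is 0.58 on the log2 scale.

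Cdk5rap2 and Mcph1 act around the centriole and on its timing. Cdk5rap2, on chromosome 4 from 69877890 to 70071477, encodes a protein of the pericentriolar material that activates the gamma-tubulin ring complex. Its level was 15.6 FPKM in the control (1586 fragments) against 14.2 FPKM in the mutant (1954 fragments), or -0.13 (-0.23 to -0.036), so that counting error alone does not reach 0. Mcph1 (microcephalin), on chromosome 8 from 18595131 to 18803189, encodes a protein with BRCT domains that holds back early chromosome condensation and links the DNA damage response to entry into mitosis. Its 3.27 FPKM in the control rested on 273 fragments and its 2.79 FPKM in the mutant on 314, the lowest counts among the 8 genes for which fragments could be obtained. The difference of -0.22 had almost the size of that of Wdr62, but its interval (-0.47 to 0.0080) included 0.

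Nde1 and Pafah1b1, the dynein regulators, had the highest levels. Pafah1b1, on chromosome 11 from 74487451 to 74538172, had 57.5 FPKM (95% FPKM interval 50.1 to 64.9) in the control against 60.1 FPKM (52.2 to 67.9) in the mutant, or 0.063 on the log2 scale. It made up 41.2% of the summed FPKM of the 10 genes in the control and 43.9% in the mutant. Nde1, on chromosome 16 from 14163368 to 14193021, had 29.5 FPKM (25.2 to 33.7) against 26.8 FPKM (22.6 to 31.0), or -0.14. Both genes have 2 RefSeq transcripts, so that fragments were not obtained for them. From the FPKM bounds of the files, the log2 ratio without pseudocount had a range from -0.20 to 0.33 for Pafah1b1 and from -0.44 to 0.17 for Nde1, and both ranges include 0.

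The 2 dynein regulators thus lay on opposite sides of 0, and the ratio of Pafah1b1 to Nde1 was 1.95 in the control and 2.24 in the mutant. Ndel1, the paralogue of Nde1 that also binds Lis1 and dynein, was at 16.6 and 17.5 FPKM. The ratio of Nde1 to Ndel1 was 1.78 in the control and 1.53 in the mutant. These ratios carry the error of both genes, and the pairs were picked after the values had been seen.

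**Figure D3:**
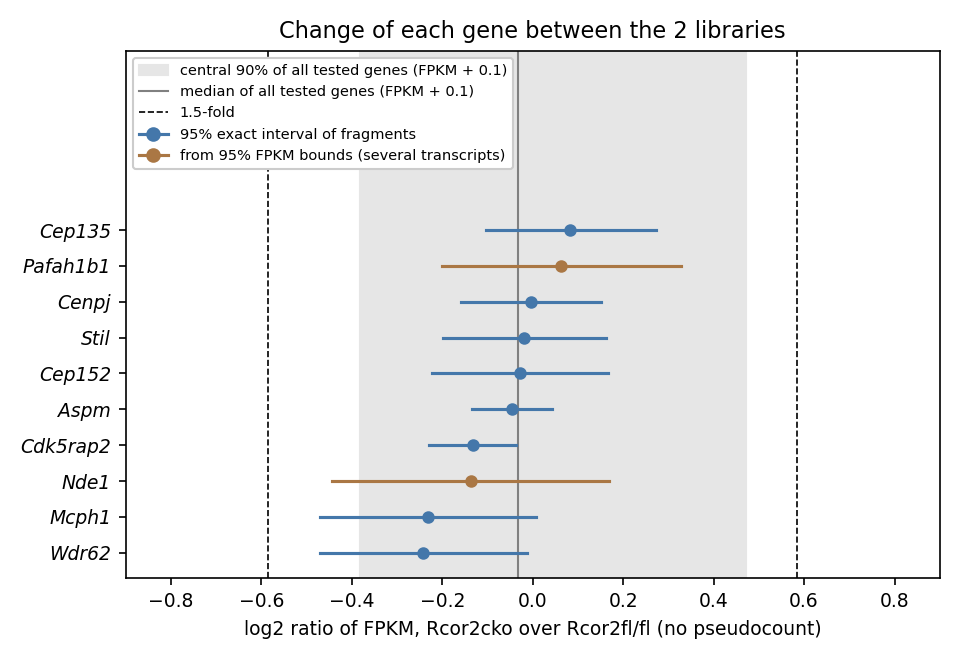
The log2 ratio of FPKM without pseudocount (horizontal axis), Rcor2cko over Rcor2fl/fl, is drawn for each gene with its 95% exact interval of fragments (blue, 8 genes with 1 transcript) or the range from the FPKM bounds of the files (brown, 2 genes). All bars stay inside the dashed 1.5-fold lines. The grey band is the central 90% of all tested genes on FPKM + 0.1, and the bars of Cdk5rap2 and Wdr62 end below 0.

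Counting error alone was small enough to show modest differences. The exact intervals of fragments cover this error only and compare the 2 libraries. Of the 8 genes with such an interval, 2 (Cdk5rap2 and Wdr62) lay wholly below 0 and none above it. Among the 8460 tested genes with 1 transcript of at least 1000 nt, 23.2% lay below 0 and 14.0% above it, so that 2 of 8 is close to the background share. No further scaling was applied to the libraries, and the median change of all tested genes was -0.033. Set against that median instead of 0, the interval of Wdr62, ending at -0.012, includes it, so this call depends on the scaling. That of Cdk5rap2, ending at -0.036, lies just below the median. For all 8 genes the interval stayed within 1.5-fold in both directions, from -0.47 at the lowest to 0.27 at the highest. The 95% FPKM intervals given in the files are wider, and they overlapped between the libraries for all 10 genes, whereas they did not overlap for 3.47% of all tested genes.

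The transcript structure was given in the control alone, where the rows are RefSeq transcripts. Nde1 had a transcript of 2282 nt at 26.5 FPKM (95% FPKM interval 22.6 to 30.4), which made up 89.9% of the gene, and another of 1658 nt at 2.99 FPKM, which made up 10.1%, both assigned to the same start site. Pafah1b1 had a coding transcript of 5517 nt at 56.4 FPKM (49.0 to 63.7) and a non-coding transcript of 5790 nt from another start site at 1.14 FPKM (0.0329 to 2.24). The non-coding transcript was 1.98% of the gene. Whether these proportions differed in the mutant cannot be read from its gene values.

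Exons of the 10 genes were compared with those of other genes at the same locus. In the GENCODE vM1 annotation, exons of Thap8 on the opposite strand cover 4.60% of the exonic bases of Wdr62, a pseudogene on the same strand 2.80% of those of Cdk5rap2 and a long non-coding RNA on the opposite strand 2.43% of those of Mcph1. Angpt2 lies within Mcph1 on the opposite strand without exonic overlap and was at 0.209 and 0.138 FPKM. The other 7 genes shared no exonic base with another annotated gene. Reads shared with similar sequences elsewhere in the genome were not examined. The library kit keeps the strand, but whether strand was used in counting is not given in the sources used here.

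Lists of related genes, written from general knowledge of the pathways, were set beside the 10 genes. Of 22 other primary microcephaly genes, 0 were past 1.5-fold in either direction, 20 were below 0 and the median log2 change was -0.10. Of all tested genes 57.6% were below 0 and the median was -0.033. The counts and medians of this and the following lists are to be read beside these values. Some genes, such as Plk4 and Kif11, stand in several lists, so that the lists are not separate observations. Kif11, a mitotic kinesin, had the highest value in this list at 0.15 (22.9 and 25.4 FPKM), and Mfsd2a, a lipid transporter of the blood–brain barrier, the lowest at -0.23 (11.2 and 9.50 FPKM). Lmnb1, which encodes a lamin and had the highest level, was at 127 and 116 FPKM.

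Of 32 genes of the centriole and the pericentriolar material, 0 were past 1.5-fold, with a median of -0.074 and a range from -0.19 for Odf2, of the appendages of the mother centriole, to 0.17 for Akap9, a scaffold protein. Centrin 3 (Cetn3), the most abundant of them, was at 82.0 and 88.7 FPKM. Of 18 genes of the gamma-tubulin ring and the augmin complex, 0 were past 1.5-fold, 13 were below 0 and the median was -0.096. The lowest was gamma-tubulin itself, Tubg1, with 30.0 FPKM in the control against 22.4 FPKM in the mutant, or -0.42 (exact interval -0.57 to -0.28), and the highest was Mzt1, a small subunit of the ring and the most abundant of the list, at 0.20 (32.3 and 37.1 FPKM).

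Among 24 genes of the dynein pathway that Pafah1b1 and Nde1 regulate, 0 were past 1.5-fold and the median was -0.053. Dync1i1, a dynein intermediate chain, had the lowest value at -0.34 (19.5 and 15.4 FPKM) and Ndel1 the highest at 0.083. Ywhae, the 14-3-3 protein that protects phosphorylated Ndel1, was the most abundant at 399 and 385 FPKM.

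Aspm and several other members are transcribed mainly in dividing cells, so the cell cycle genes were set beside them. Of 35 genes of the mitotic spindle and G2/M, 0 were past 1.5-fold, 28 were below 0 and the median was -0.11. Plk1, a kinase of mitotic entry and centrosome maturation, had the lowest value at -0.44 (18.2 and 13.4 FPKM) and Ndc80, of the kinetochore, the highest at 0.33 (8.33 and 10.5 FPKM). Top2a, the topoisomerase of dividing cells, was at 65.1 and 58.9 FPKM. For 13 of the 26 genes with an exact interval it lay below 0, and for 2 above 0. Of the 8 genes above, 2 lay below 0 and 0 above, and of all genes 23.2% and 14.0%. These shares also depend on depth, since intervals narrow with more fragments. The median control level was 17.1 FPKM in this list and 6.11 FPKM in the 10 genes. Of 23 genes of S phase, 0 were past 1.5-fold and the median was -0.087, with Cdt1, a replication licensing factor, lowest at -0.36 and Gins1, of the replicative helicase, highest at 0.34. The replication clamp Pcna was at 135.0 and 134.8 FPKM.

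**Figure D4:**
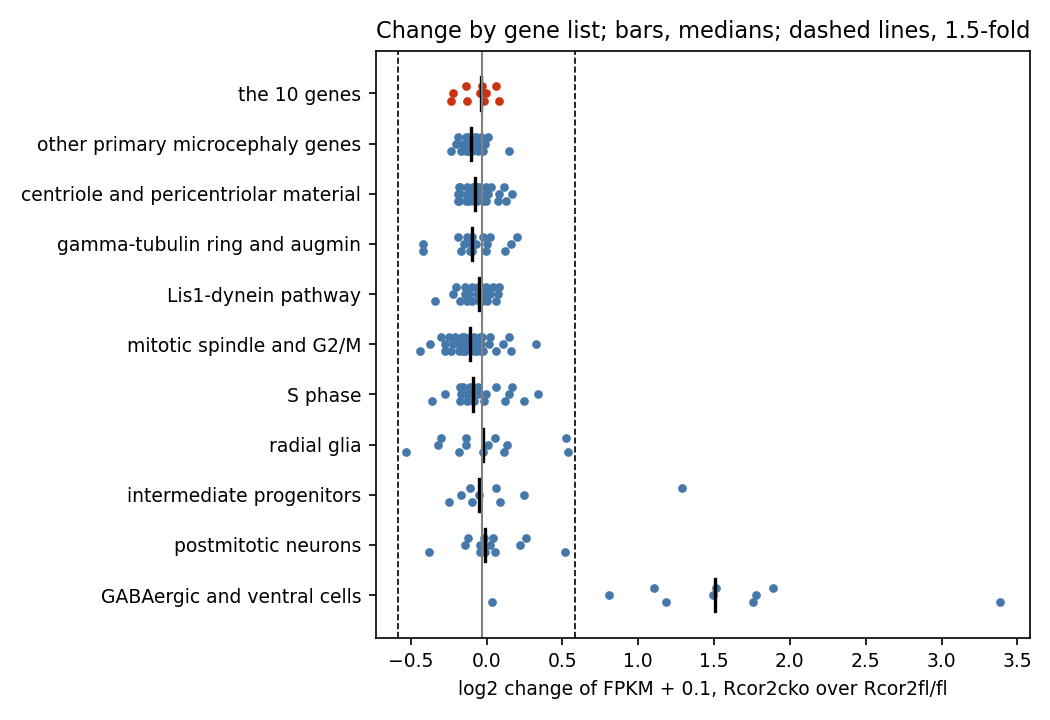
Each point is a tested gene, placed by its log2 change of FPKM + 0.1 (horizontal axis), with the 10 genes in red, other lists in blue and a black bar at each median. The grey line is the median of all tested genes, and the lists from centrosome to S phase stay inside the dashed 1.5-fold lines, while 9 of 10 GABAergic genes lie beyond them.

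The cells behind these values were checked by their markers. In bulk tissue, fewer cells of a type and less RNA per cell cannot be told apart. Of 13 genes of radial glia, the progenitors in which the 10 genes are chiefly studied, 0 were past 1.5-fold and none was listed at 0, with values from -0.53 for Hes1, a Notch target, to 0.53 for Fabp7, a fatty acid binding protein. Of the 13, 7 were below 0 and the median was -0.022. Their summed level was 996 FPKM in the control and 1133 FPKM in the mutant, in which Fabp7 alone had 372 and 539 FPKM, a larger difference than that of the sums. Of 9 genes of intermediate progenitors only Penk, which encodes an enkephalin precursor, was past 1.5-fold, at 0.392 and 1.10 FPKM. Penk reached 1 FPKM in the mutant alone, so that with its control value the call followed from the filter. Its values rested on only 9 and 34 fragments (exact interval of the log2 ratio 0.40 to 2.74). The summed level of the 9 genes was 353 and 345 FPKM. Of 13 genes of postmitotic neurons 0 were past 1.5-fold, from -0.38 for Snap25 to 0.52 for Syt1, both of the synaptic vesicle machinery, and the summed level was 1984 and 1932 FPKM. Each of these 3 sums differed by less than 1.5-fold between the libraries. The most abundant markers of the last 2 lists were Neurog2, a proneural factor, at 84.3 and 88.0 FPKM, and Tubb3, the neuronal tubulin, at 568 and 521 FPKM.

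Markers of other cells differed between the libraries. Of 10 GABAergic and ventral genes, 9 were more than 1.5-fold higher in the mutant and 0 lower, with a summed level of 42.7 and 103 FPKM and none at 0. The 9 were Gad1, Gad2, Slc32a1, Sst, Npy and the homeobox genes Dlx1, Dlx2, Dlx5 and Dlx6, from 0.81 for Npy to 3.39 for Dlx6, and Lhx6 was at 0.033. Of these, Dlx6 (0.121 and 2.21 FPKM) reached 1 FPKM in the mutant alone, so that its being higher followed from the filter. Of 9 choroid plexus genes, Ttr, Kcne2 and Aqp1 reached 1 FPKM, each in the mutant alone, so that being higher followed from the filter. The sum over the 9 was 1.19 and 63.5 FPKM. Ttr, the transthyretin gene, was listed at 0 in the control and had 57.8 FPKM in the mutant. Kcne2 was higher by 2.73 and Aqp1 by 1.73 on the log2 scale. Kl was also listed at 0 in the control, but had only 1 fragment (0.00798 FPKM) in the mutant.

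Of 9 tested microglial genes 5 (Csf1r, C1qa, C1qc, Tyrobp and P2ry12) were more than 1.5-fold higher and Fcer1g was lower. Over all 10 microglial genes of the list the summed level was 22.8 and 33.3 FPKM, with none at 0. Of 5 tested erythroid genes Hbb-b1 was more than 1.5-fold lower, and the sum over all 8 of the list was 242 and 178 FPKM. None of the 10 genes of endothelium and pericytes was past 1.5-fold, with sums of 44.1 and 50.9 FPKM, from Cldn5 at 0.040 (12.4 and 12.7 FPKM) to Pdgfrb at 0.49. Igf2, the only meningeal gene of 8 above 1 FPKM, was at 5.58 and 6.42 FPKM. The part of these cells in the values of the 10 centrosome and microcephaly genes was not tested.

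For Wdr62, which had the largest difference, genes with the nearest pair of levels were sought. Over the 2 libraries the 3 genes nearest to it, by Euclidean distance of the pair of log2(FPKM + 0.1) values, were Anxa7 (distance 0.014), Suox (0.014) and Tbc1d5 (0.019). With 2 libraries a pattern is no more than a pair of levels.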

How the data were processed

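RNA of 2 E13.5 libraries was measured, 1 per genotype, grouped by the genotype label. The authors mapped the reads to mm9 with TopHat and deposited FPKM values with 95% FPKM bounds, in 27641 transcript rows for Rcor2fl/fl and 21896 gene rows for Rcor2cko. The submitters' processing notes name TopHat 1.3.3 and Cufflinks 1.2.0, and the methods give a later TopHat version. Transcript rows were added up per gene, and their half-widths were combined in quadrature.

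Genes that reached 1 FPKM in either library were compared by log2 of (FPKM + 0.1), against a fold of 1.5, with no further normalization. With 1 library per genotype no test was made. For genes with a single transcript, not shorter than 1000 nt and with status OK, fragments were obtained from the FPKM steps, with 194.0 nt (Rcor2fl/fl) or 200.9 nt (Rcor2cko) taken off the transcript length. Of the values up to 100 fragments, 99.3% and 99.4% lay within 0.1 of a whole number. Intervals of the ratio are 95% exact (Clopper-Pearson), without pseudocount, and cover counting error only. The steps were tested on simulated data. The range for Nde1 and Pafah1b1 combines the relative half-widths of the libraries. Positions, exons and codons are from GENCODE vM1 on NCBIM37 (mm9), counted from 1. Promoter windows are from RefSeq (GRCm38.p6), matched to mm9 by sequence. Protein sequences were not used here. All 245 list genes were found, some under older symbols.

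The members and lists were chosen with earlier results of these data known. Named are the 10 members, Rcor2, the genes of a list past 1.5-fold or else its highest and lowest, its most abundant gene, and the 3 genes nearest to the member with the largest change. Pairs in ratios, overlapping genes, Xist and Eif2s3y were chosen after their values were seen. The cutoff of 3 CCAAT boxes was not part of the plan. Alternatives changed the pseudocount, scaling, filter, fold, transcript rows and status. Python 3.11.15, numpy 2.4.6, pandas 2.3.3, scipy 1.17.1 and matplotlib 3.10.9 were used.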

Additional observations from a re-analysis of the deposited data

How the results depend on the processing

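Across 14 alternatives, the count of genes past the fold stayed at 0 in both directions wherever it was computed, at a lower and a higher fold as well. The median of the 10 log2 changes lay between -0.037 and -0.0023 wherever all 10 genes remained. Over the 5 genes that reached 5 FPKM in either library it was -0.046. The number of genes below the median of all genes was 5. It moved to 8 without a filter on low FPKM, where the median of all genes was 0, to 7 with the highest transcript row per gene, and to 3 when 5 FPKM was asked in either library, where 5 of the 10 genes remained. Cenpj and Stil changed sign with median, upper-quartile and total scaling, Cep152 with median and upper-quartile scaling, and Nde1 with the highest transcript row per gene, to 0.017, a setting that lowers the control alone. No value of a single gene went beyond 0.24 in size. No paired analysis was possible because each genotype has 1 library, and no replicate could be left out. Depth limits Mcph1 and Wdr62 most, at 273 and 296 fragments in the control.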
